A study of Mus musculus with 23 samples.

Results

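The genes described here are 10 markers of ependymal cells and motile cilia, chosen by symbol from the 55335 genes of a count table of mouse hippocampus (34928 of them with reads in at least 1 library). They are Foxj1, Rsph1, Ccdc153, Tmem212, Dynlrb2, Rarres2, Mia, Tekt1, Ak7 and Meig1. Whole hippocampus was sequenced in 23 libraries of 6 groups. WT-8M and 3xTg-8M (4 libraries each) were untreated mice of 8 months. WT-D and 3xTg-D (4 each), WT-S (3) and 3xTg-S (4) were mice of 10 months that had carried a brain cannula and an osmotic pump into the lateral ventricles for 28 days. The pump held 0.8% DMSO in artificial cerebrospinal fluid in the D groups, and in the S groups the same vehicle with 80 µM of ab142089, an inhibitor of stearoyl-CoA desaturase (SCDi). WT mice were of the strain C57BL/6J x 129S1. 3xTg mice (of a B6;129 background) carry human APP_Swe and tau_P301L transgenes, both driven by the neuronal Thy1.2 element, and their genetic background is not identical to that of WT mice. All mice were female.

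Ependymal cells line the brain ventricles and bear tufts of motile cilia that move cerebrospinal fluid. Each motile cilium is built on an axoneme, a cylinder of doublet microtubules around a central pair, which beats through dynein arms and is steered by radial spokes and the nexin-dynein regulatory complex. FOXJ1 is the transcription factor that switches on this programme, and RFX factors act with it. The hippocampus borders the lateral ventricle, so a dissected hippocampus can carry ependyma and choroid plexus on its surface. In such bulk RNA, fewer cells of a type and less RNA per cell cannot be told apart.

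The depth per library was 12.8M to 36.7M in the 8-month groups and 12.99M to 17.6M gene counts in the 10-month groups. All positions are on GRCm38. Levels are given as CPM, a gene's counts divided by all gene counts of the library and multiplied by 1e6. The 6 hippocampal neuron markers used as a check were present in every library, with a summed level of 372 to 537 CPM. At 8 months this sum was 414 to 505 CPM in WT-8M and 372 to 466 CPM in 3xTg-8M, with overlap. At 10 months it was 474 to 531 CPM in WT-D and 493 to 537 CPM in WT-S, above the 407 to 454 CPM of 3xTg-D and the 380 to 447 CPM of 3xTg-S. C1ql2, a marker of dentate granule cells among them, was called lower in all 4 comparisons of 3xTg with WT groups (log2 fold change -1.04 to -1.45). The 6 markers did not all move with it. In 3xTg-8M against WT-8M, 3 were higher and 3 lower, with 1 called in each direction. In 3xTg-D against WT-D, 2 were higher and 4 lower. In 3xTg-S, 1 was higher and 5 lower against WT-S. Against WT-D, 2 were higher and 4 lower in 3xTg-S, and 2 were called lower in each comparison of 3xTg-S with WT. The infusion reaches the ventricle, so the choroid plexus markers are given as well. Ttr, the abundant transthyretin of choroid plexus, ranged from 1.49 to 314 CPM and was above 100 CPM in 3xTg-8M replicate 4 (314 CPM), WT-S replicate 2 (305 CPM) and 3xTg-S replicate 2 (210 CPM). The summed level of all 12 choroid plexus markers was 41.9 to 63.5 CPM in WT-8M, 36.9 to 382 CPM in 3xTg-8M, 41.2 to 50.8 CPM in WT-D, 46.8 to 139 CPM in 3xTg-D, 41.8 to 388 CPM in WT-S and 40.1 to 270 CPM in 3xTg-S. Kl, the klotho gene, was steadier at 22.1 to 38.0 CPM, and Prlr, the prolactin receptor, lay between 3.41 and 9.52 CPM. Kl made up most of the low sums. In WT-D, where the sum averaged 46.4 CPM, Kl averaged 28.9 CPM and Ttr 7.11 CPM. Kcne2, Slc4a5, Kcnj13 and Tmem72 were at 0 in at least 1 library each, and of the 12 only 5 to 8 passed the filter in a comparison of 2 groups. None of those tested was called, and 3 of the 5 tested in 3xTg-D against WT-D were higher at an unadjusted p under 0.05.

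Apart from Mia, the members were expressed at a low but measurable level in every library. Per kilobase of exon (RPKM, the scale on which genes can be compared), the means over 23 libraries were 2.90 for Rsph1, 2.67 for Rarres2, 2.15 for Meig1, 2.07 for Dynlrb2, 2.05 for Tmem212, 2.03 for Foxj1, 1.50 for Ccdc153, 1.27 for Tekt1 and 0.876 for Ak7. Mia (chr7:27179742-27181157, minus strand), which encodes a small secreted protein, had 17 counts in all 23 libraries together and 0 to 3 in any of them. A count of 3 corresponds to 0.0818 to 0.234 CPM here, so Mia was at the limit that a count of 0 allows and was left out of all tests by the filter on low counts. These limits cover counting error only. Mia shares 410 of its 994 exonic bases with Gm21983 on the same strand, which had 0 counts in every library, and reads that fall in both genes are assigned to neither by the counting used.

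FOXJ1 is the regulator at the head of the list. Foxj1 (chr11:116330704-116335399, minus strand) measured 3.11, 4.06, 7.34 and 5.61 CPM in WT-8M and 7.42, 6.80, 5.25 and 5.15 CPM in 3xTg-8M. It measured 3.87, 6.51, 3.62 and 5.23 CPM in WT-D mice, beside 6.71, 3.96, 4.45 and 4.67 CPM in 3xTg-D mice. In the inhibitor groups it measured 4.62, 6.85 and 4.79 CPM (WT-S) and 5.68, 6.97, 5.85 and 3.85 CPM (3xTg-S). The groups overlapped throughout, and single libraries of a group lay further apart than any pair of group means. The group means ran from 4.81 ± 1.34 CPM (SD, n = 4) in WT-D to 6.15 ± 1.13 CPM (n = 4) in 3xTg-8M.

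Rsph1 (chr17:31255019-31277383, minus strand) encodes a radial spoke head protein. It had the highest level per length and was among the steadiest members, at 2.70 to 5.32 CPM. Its 4 libraries of 3xTg-8M measured 5.32, 4.76, 4.50 and 4.43 CPM, and those of WT-8M 3.22, 3.35, 4.54 and 4.24 CPM. All other group means lay between 3.75 and 3.87 CPM. Ccdc153 (chr9:44240676-44247306, plus strand), a subunit of the nexin-dynein regulatory complex, was the most variable. It measured 1.14, 2.06, 6.81 and 3.56 CPM in WT-8M and 5.59, 2.34, 2.93 and 2.87 CPM in 3xTg-8M. In the vehicle groups it measured 0.910, 3.56, 2.63 and 1.68 CPM (WT-D) and 4.18, 2.51, 1.89 and 3.14 CPM (3xTg-D). Under the inhibitor it measured 2.69, 2.24 and 1.45 CPM in WT-S and 4.57, 3.98, 5.41 and 2.10 CPM in 3xTg-S. The 3xTg-S libraries were thus above every WT-S library, except that 3xTg-S replicate 4 was within their range. Ccdc153 differed 7.48-fold between its highest library (WT-8M replicate 3) and its lowest (WT-D replicate 1).

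Tekt1 (chr11:72344722-72362442, minus strand) encodes a tektin, a filament protein inside the doublet microtubules, and Ak7 (chr12:105705976-105782447, plus strand) an adenylate kinase needed for ciliary beating. Tekt1 measured 0.910, 2.01, 1.71 and 1.37 CPM in WT-D, 1.69, 2.45 and 2.39 CPM in WT-S, 1.95, 1.52, 2.19 and 1.95 CPM in 3xTg-D, and 2.41, 2.85, 2.27 and 2.30 CPM in 3xTg-S. Every 3xTg-S library was above every 3xTg-D and every WT-D library. At 8 months Tekt1 lay at 1.20 to 2.21 CPM in WT-8M and 1.95 to 3.46 CPM in 3xTg-8M. Ak7 measured 2.73, 3.36, 2.96 and 3.61 CPM in the 4 libraries of WT-D and 5.003, 4.62 and 3.92 CPM in those of WT-S, with no overlap. In the 3xTg groups it spread from 2.44 to 5.77 CPM in 3xTg-D and from 1.89 to 4.97 CPM in 3xTg-S. Meig1 (chr2:3409043-3422648, minus strand), a gene known from sperm development, measured 2.34, 3.52, 3.51 and 2.64 CPM in 3xTg-S, all above the 1.77, 2.02 and 2.18 CPM of WT-S and the 1.65, 2.08, 1.97 and 2.05 CPM of WT-D. The 3xTg-D libraries, at 2.01 to 3.17 CPM, overlapped with those of 3xTg-S.

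Rarres2 (chr6:48569696-48572789, minus strand) encodes chemerin, a secreted chemoattractant, and had the highest CPM of the members. It measured 5.75, 6.38, 6.71 and 5.98 CPM in WT-D, 6.85, 9.81 and 6.82 CPM in WT-S, 7.21, 5.48, 6.03 and 5.99 CPM in 3xTg-D, and 8.08, 9.29, 7.68 and 6.76 CPM in 3xTg-S. The WT-S and 3xTg-S libraries were all above those of WT-D, by a margin that was small for the lowest of them. The highest value in each inhibitor group was in the library with the most Ttr of that group (WT-S replicate 2 and 3xTg-S replicate 2). The part of choroid plexus RNA in it was not tested. Rarres2 shares 892 of its 2656 exonic bases with Lrrc61 on the opposite strand, which had a mean of 18.1 CPM, and because no source says whether counting used strand, reads of the shared stretch cannot be assigned with certainty. Lrrc61 itself had group means of 17.4 to 18.6 CPM. Tmem212 (chr3:27866066-27896368, minus strand), a membrane protein known as an ependymal marker, measured 0.681, 0.854, 2.12 and 1.27 CPM in WT-8M and 2.49, 2.03, 1.50 and 2.08 CPM in 3xTg-8M, so that WT-8M replicate 3 lay within the 3xTg-8M range. Dynlrb2 (chr8:116504974-116515915, plus strand), a dynein light chain, lay at 0.354 to 1.89 CPM over all libraries. Dynlrb2 had 8 to 54 counts per library, and the fewest in total of the tested members.

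**Figure D1:**
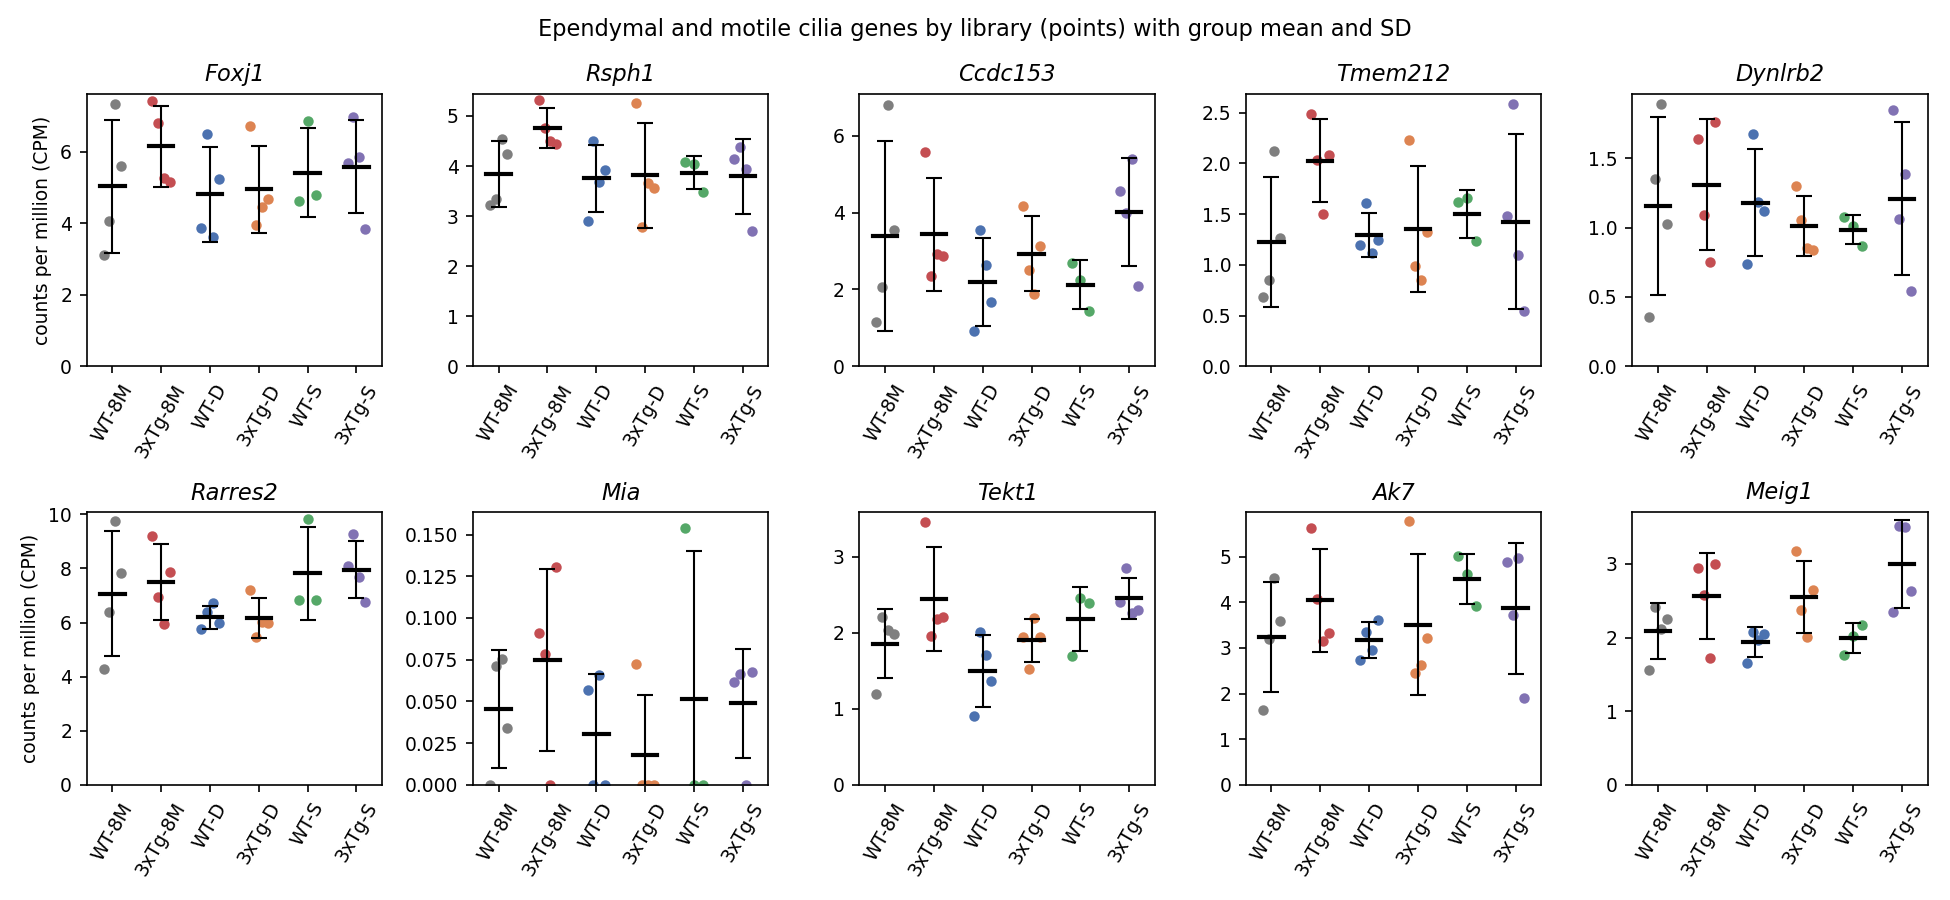
Level of each of the 10 members in CPM (y axis, from 0, a scale of its own for each gene) in the 6 groups (x axis). Points are libraries, the long bar is the group mean and the whiskers are 1 SD. The points of different groups overlap in most panels, Mia does not exceed 0.154 CPM, and Ccdc153 spreads from 0.910 to 6.81 CPM.

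Ordered by their group means, the groups followed no common order across members. The lowest mean was that of WT-D for 5 of the 9 expressed members, and the highest that of 3xTg-8M for 4, that of 3xTg-S for 4 and that of WT-S for Ak7. The highest group mean exceeded the lowest by 1.27-fold for Rsph1 to 1.89-fold for Ccdc153. Of the 5 steps between neighbouring group means, none exceeded the larger SD of its 2 groups for 7 of these members, and 1 did for Rsph1 and for Tmem212.

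The comparison at 8 months asked whether these genes differed between untreated 3xTg and WT mice, whose transgenes and genetic background cannot be told apart. All 9 tested members had a positive log2 fold change in 3xTg-8M against WT-8M, with a median of 0.34, where 51.3% of all tested genes had one above 0 and the median over all genes was 0.01. No member was called by edgeR's quasi-likelihood test at an adjusted p under 0.05, at which 2.58% of genes were called, nor by the DESeq2 likelihood ratio test in this or any other comparison. The largest difference was that of Tmem212, with a log2 fold change of 0.83 (SE 0.32, 95% interval 0.13 to 1.53, edgeR adjusted p = 0.214), and it was the only member at an unadjusted p under 0.05 (8.55% of all genes were so and higher). For Foxj1 the value was 0.34 (95% interval -0.19 to 0.86) and for Ccdc153 0.16 (-0.85 to 1.17). No member was without overlap between these groups, against 11.1% of genes. The median depended on WT-8M replicates 1 and 3, being 0.14 without the former and 0.53 without the latter. The members varied together from library to library, as given below. Here and in the later comparisons, a direction shared by the 9 members is therefore not 9 separate observations.

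At 10 months under vehicle, 7 members were higher and 2 lower in 3xTg-D than in WT-D, with a median log2 fold change of 0.04 (49% of all genes were higher). None of the 9 was called, where 1.39% of genes were, none had an unadjusted p under 0.05 (6.25% of genes had one and were higher), and none was without overlap (7.28% of genes). The values ranged from -0.23 for Dynlrb2 (95% interval -0.84 to 0.39) to 0.41 for Ccdc153 (-0.37 to 1.19). The median turned to -0.15 without 3xTg-D replicate 1, the library with the highest level of Foxj1, Ak7 and Tmem212 in its group.

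The infusion ran into the ventricle that the ependyma lines, so the inhibitor comparisons ask whether the compound went with a change of these genes. In 3xTg-S against 3xTg-D, 8 members were higher and 1 lower, with a median log2 fold change of 0.23 (49.5% of all genes were higher). In WT-S against WT-D, 7 were higher and 2 lower, with a median of 0.17 (50.6% of all genes were higher). No member was called in either, and neither was any other gene of the table (0% called). Rarres2 was the member at an unadjusted p under 0.05 in 3xTg (log2 fold change 0.36, SE 0.13, 95% interval 0.08 to 0.64, edgeR adjusted p = 0.378, where 5.65% of genes were higher at that threshold). In WT it was Ak7 (0.50, SE 0.17, 95% interval 0.13 to 0.87, edgeR adjusted p = 0.981, where 2.05% were). Tekt1 was without overlap in 3xTg (6.89% of genes were), and Rarres2 and Ak7 in WT (4.94%). The WT median rested on the Ttr-rich WT-S replicate 2 and was 0.01 without it, and the Rarres2 value of that comparison went from 0.32 to 0.12. Markers of other tissue at the brain surface were higher beside the members in WT-S against WT-D, none of them called: 8 of 8 meningeal markers (median log2 fold change 0.48) and 6 of 6 tested choroid plexus markers (0.95). Ttr was 305 CPM in WT-S replicate 2 but 8.62 CPM in replicate 1 and 3.48 CPM in replicate 3, beside 3.42 to 9.73 CPM in WT-D. In 3xTg-S against 3xTg-D, 6 of 7 tested meningeal markers (0.22) and 4 of 8 tested choroid plexus markers (-0.03) were higher. The 6 oligodendrocyte markers were all higher in that comparison (0.32), and 3 of 6 were in WT-S against WT-D (0.02), none of them called. The summed level of the meningeal markers was 83.7 to 145 CPM in WT-D, 101 to 191 CPM in WT-S, 91.8 to 168 CPM in 3xTg-D and 55.6 to 204 CPM in 3xTg-S. The part of these other tissues and cells in the members' values was not tested.

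Averaged over the strains, all 9 members had a positive inhibitor log2 fold change, with a median of 0.17 (50.1% of all genes were higher), and none was called (0% of genes). Rarres2 had 0.34 (SE 0.10, 95% interval 0.13 to 0.55, edgeR adjusted p = 0.290) and Tekt1 0.45 (SE 0.16, 95% interval 0.11 to 0.79, edgeR adjusted p = 0.298). They were the 2 members at an unadjusted p under 0.05, where 6.33% of all genes were higher at that threshold, and Rarres2 alone was also under 0.01 (3.4% of genes in either direction). Its value was 0.20 without WT-S replicate 2 and 3xTg-S replicate 2, the libraries of 10 months with Ttr above 100 CPM, left out by a choice made after seeing the data. The 8 meningeal markers (median 0.44), the 6 oligodendrocyte markers (0.15) and 10 of 11 tested choroid plexus markers (1.06) were also higher in this average, none of them called. High Ttr was confined to 1 library in each inhibitor group. In 3xTg-S it was 210 CPM in replicate 2 but 8.45, 1.75 and 2.84 CPM in replicates 1, 3 and 4, beside 4.82 to 82.3 CPM in 3xTg-D. The choroid plexus medians were not computed without these libraries. For Rsph1 and Dynlrb2 the estimates were 0.01 (95% interval -0.29 to 0.32) and 0.00 (-0.50 to 0.50). The interaction of strain and inhibitor was not called for any member (0% of genes), with 5 values above 0 (50.6% of genes), a range from -0.36 for Ak7 to 0.53 for Dynlrb2 and none at an unadjusted p under 0.05 (1.21% of genes had one with a value above 0). Its 95% intervals were wide, reaching 0.42 at the narrowest (Rarres2) and 1.14 at the widest (Tmem212) on either side of the estimate. Smaller differences between the strains could not be detected, and larger ones may also go uncalled, since these intervals are unadjusted.

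Against WT-S, 3xTg-S had 6 members higher and 3 lower with a median log2 fold change of 0.04 (51.2% of all genes were higher). None was called (1.32% of genes were). Ccdc153 (0.91, SE 0.31, 95% interval 0.23 to 1.60, edgeR adjusted p = 0.277) and Meig1 (0.58, SE 0.22, 95% interval 0.11 to 1.06, edgeR adjusted p = 0.329) were the members at an unadjusted p under 0.05 (5.43% of genes were higher at that threshold), and Meig1 was without overlap (10.6% of genes). Against WT-D, the study's reference, all 9 members were higher in 3xTg-S (51.2% of all genes were), with a median of 0.27, and again none was called (2.29% of genes were). Meig1 (0.61, SE 0.19, edgeR adjusted p = 0.129), Tekt1 (0.71, SE 0.23, edgeR adjusted p = 0.145), Rarres2 (0.34, SE 0.12, edgeR adjusted p = 0.172) and Ccdc153 (0.87, SE 0.35, edgeR adjusted p = 0.232) were higher at an unadjusted p under 0.05, 4 of 9 members where 9.01% of genes were. Tekt1 and Meig1 were also under the study's threshold of 0.01 without adjustment, where 6.59% of genes were in either direction. Rarres2, Tekt1 and Meig1 did not overlap between these groups (10.1% of genes). The 3xTg-S libraries enter 3 of these comparisons and the WT-D libraries 3, so the comparisons are not independent. Neither are the members, which varied together between libraries, so 4 of 9 members is not a count of separate observations. Without a filter on low counts, Ccdc153 was called against WT-S (log2 fold change 0.91, edgeR adjusted p = 0.00528) and against WT-D (0.86, edgeR adjusted p = 0.00979). Calls over all genes rose with it, from 206 to 729 against WT-S and from 356 to 1135 against WT-D.

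All 6 oligodendrocyte markers were also higher in 3xTg-S than in WT-S (median log2 fold change 0.30) and in WT-D (0.32). In each of these comparisons 51.2% of all genes were higher. Mbp, which encodes myelin basic protein, lay at 2526 to 2987 CPM in 3xTg-S, 1724 to 2361 CPM in WT-S, 1681 to 2331 CPM in WT-D, 1641 to 2481 CPM in 3xTg-D, 1193 to 2345 CPM in WT-8M and 2039 to 2630 CPM in 3xTg-8M. Every 3xTg-S library was thus above every other library of 10 months. Mobp, another gene of myelin, lay at 909.6 to 1016 CPM in 3xTg-S, 570.5 to 759.9 CPM in WT-S, 647 to 898 CPM in WT-D, 753.9 to 914 CPM in 3xTg-D, 445 to 990.1 CPM in WT-8M and 671 to 928 CPM in 3xTg-8M. Both were called higher in the 3xTg-S group than in the WT-D group (edgeR adjusted p = 0.0283 for Mbp and 0.0490 for Mobp), and Mobp was called higher than in WT-S (edgeR adjusted p = 0.0156). The part of tissue composition in the members' values was not tested.

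**Figure D2:**
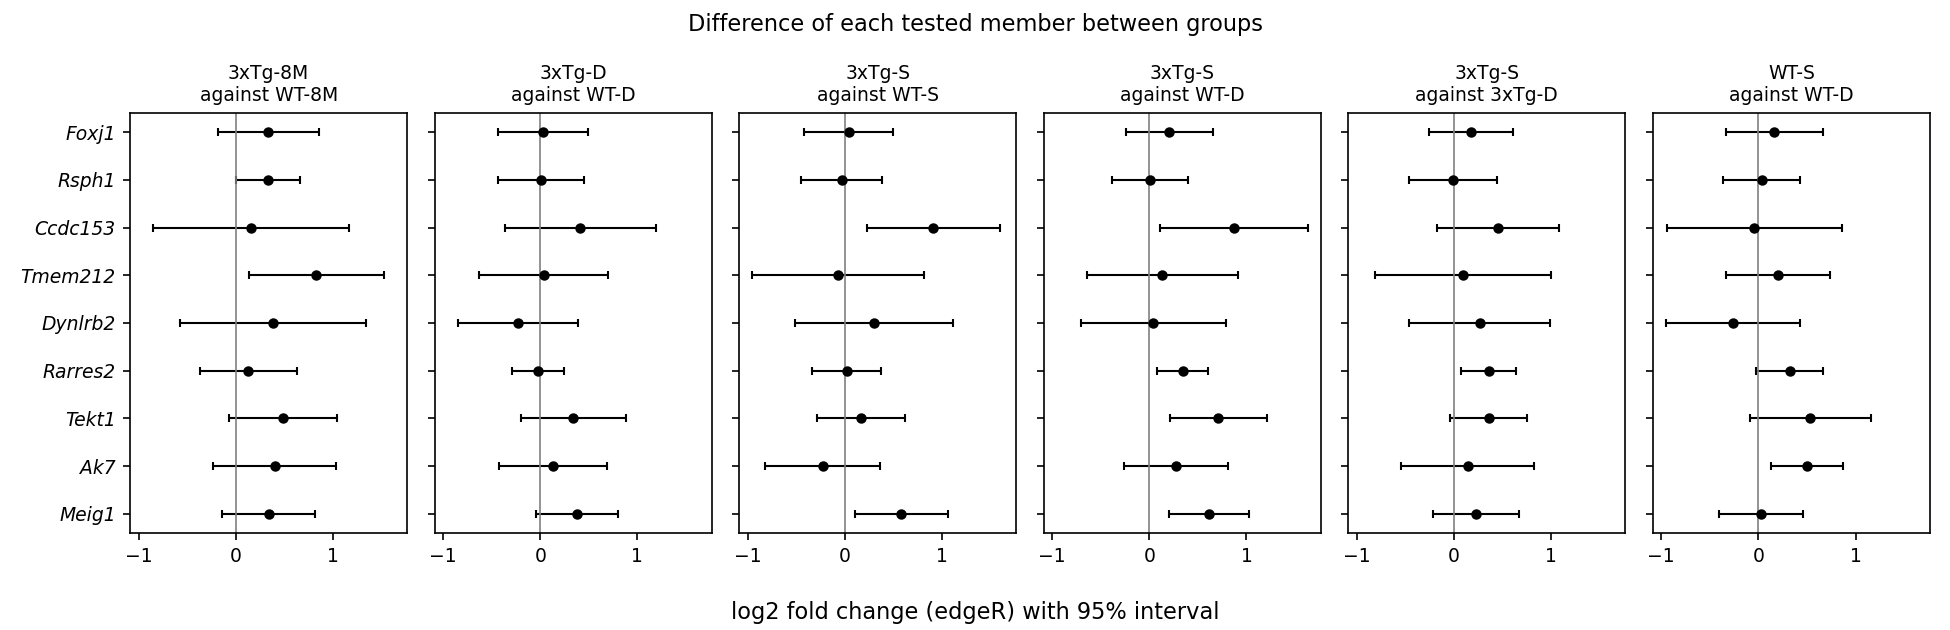
Log2 fold change of the 9 tested members (rows) in the 6 comparisons of groups (panels), on 1 shared x axis. Points are edgeR estimates and bars their 95% intervals, unadjusted. Most bars cross 0, and those that do not belong to Tmem212 at 8 months, Rarres2, Ak7, Ccdc153, Tekt1 and Meig1 at 10 months.

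The larger pattern in these genes was between animals of the same group. Within groups the coefficient of variation ran from 17.5% (Meig1) and 17.7% (Rsph1) to 39.7% (Tmem212) and 46.8% (Ccdc153), while counting alone gives 9.62% (Rarres2) to 24.9% (Dynlrb2). The measured spread was 2.91 times the counting spread for Ccdc153, 2.34 times for Foxj1, 2.27 times for Ak7 and 2.02 times for Rarres2. For Meig1 it was 1.04 times, so its spread was close to that of counting, and for Tekt1 1.24 times.

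The members rose and fell together from library to library. With the group means removed, all 36 pairs of the 9 expressed members had a positive Pearson's r over 23 libraries, from 0.36 (Tmem212 and Tekt1) to 0.84 (Foxj1 and Rsph1), with a median r of 0.65 and a median rho of 0.60. Foxj1 and Rsph1 had r = 0.84 and Spearman's rho = 0.88 (two-sided permutation tests within groups, raw p = 2e-05 and 3e-05, adjusted over 55 tests p = 0.00044 and 0.000733), and r = 0.84 without the 2 libraries farthest from the median of Foxj1. An adjusted p under 0.05 was reached by 30 of the 36 pairs by r and by 21 by rho. The median r was 0.57 without the 2 farthest libraries, 0.83 within the 8 libraries of 8 months and 0.58 within the 15 of 10 months. The lowest values were those of Tekt1 and Meig1, the members with the spread nearest to that of counting. Mia, at the floor, had a median r of 0.27 with the others and 0 of 9 pairs passed by r or by rho.

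No pair with Ttr reached that threshold. Its r with the 9 expressed members ran from -0.05 (Ccdc153) to 0.44 (Tmem212), with a median of 0.21, and 0 of 9 pairs had an adjusted p under 0.05 by r or by rho. The raw permutation p of the highest of them, with Tmem212, was 0.0599 (adjusted p = 0.0936), its rho was 0.39 and its r without the 2 farthest libraries was 0.24. Rarres2 and Ttr had r = 0.81 within the libraries of 10 months and 0.06 within those of 8 months, and 0.37 over all (rho = 0.48, raw permutation p = 0.0933, adjusted p = 0.128).

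**Figure D3:**
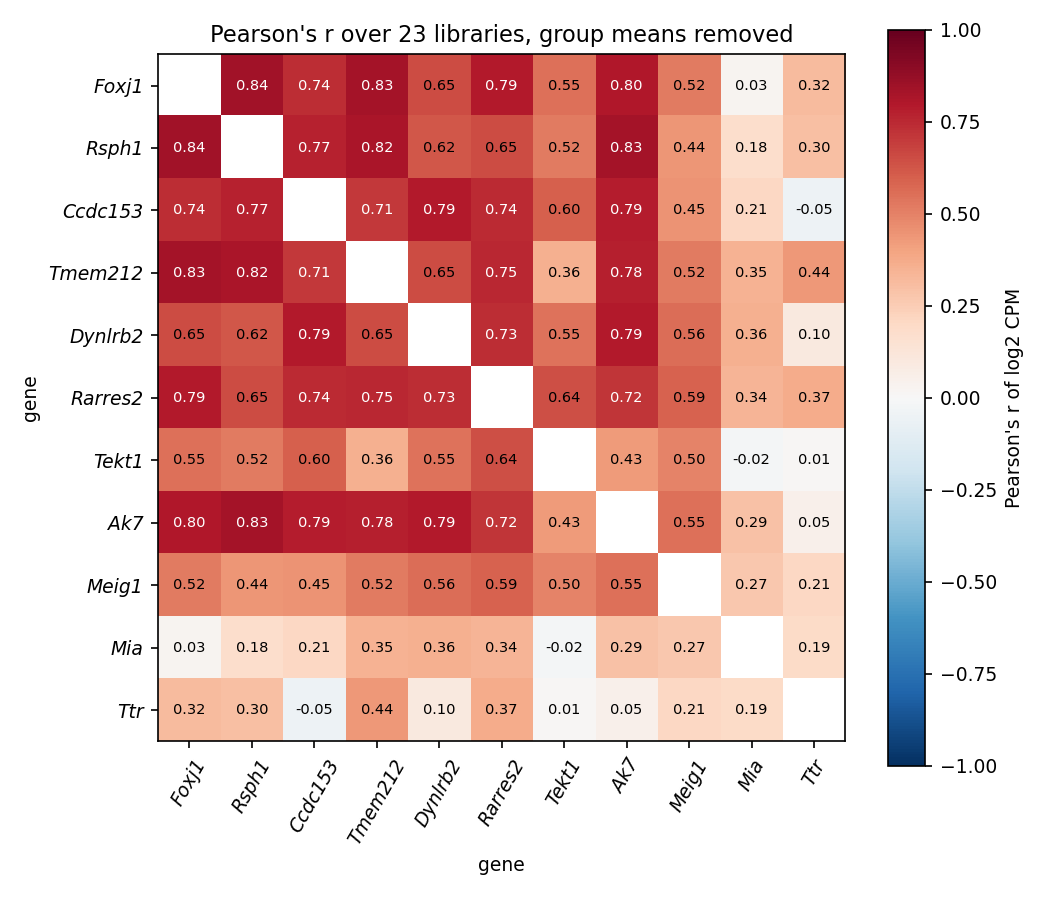
Pearson's r between the members and Ttr (rows and columns) over 23 libraries after removal of group means, from log2 CPM. Red is positive and blue negative. The block of 9 expressed members is red throughout, at 0.36 to 0.84, and the rows of Mia and Ttr are pale.

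Single libraries carry this pattern. In 3xTg-8M replicate 1 all 9 members were above their own median over the libraries, and their summed level was 43.8 CPM. It was 41.2 CPM in WT-8M replicate 3, 38.4 CPM in 3xTg-S replicate 2 and 37.9 CPM in 3xTg-D replicate 1. At the other end, 0 of 9 members were above their median in WT-8M replicate 1 (17.2 CPM) and in WT-D replicate 1 (20.7 CPM), and 3xTg-D replicate 2 and 3xTg-S replicate 4 were also low (23.1 and 23.4 CPM). Both the highest and the lowest library were thus of 8 months, from mice without surgery, and each 10-month group other than WT-S held a library near 1 end of the range. WT-8M replicate 1 and 3xTg-8M replicate 1 were the most deeply sequenced of their groups, at 36.7M and 32.9M gene counts. Ttr was 16.5 CPM in the lowest library and 1.49 CPM in the highest.

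By group, the summed level of the members was 29.0 ± 10.1 CPM (SD, n = 4) in WT-8M, 34.3 ± 6.72 CPM (n = 4) in 3xTg-8M, 26.1 ± 4.48 CPM (n = 4) in WT-D, 28.2 ± 6.67 CPM (n = 4) in 3xTg-D, 30.5 ± 3.87 CPM (n = 3) in WT-S and 33.3 ± 6.76 CPM (n = 4) in 3xTg-S. The means lay between 26.1 and 34.3 CPM, and the ranges of single libraries overlapped between all groups. Age, surgery, infusion and any batch between the 8-month and the 10-month groups cannot be told apart, so these are set side by side only. The labels differ as well, with an L before HPP in the 8-month groups only, and the sources used here do not explain it.

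**Figure D4:**
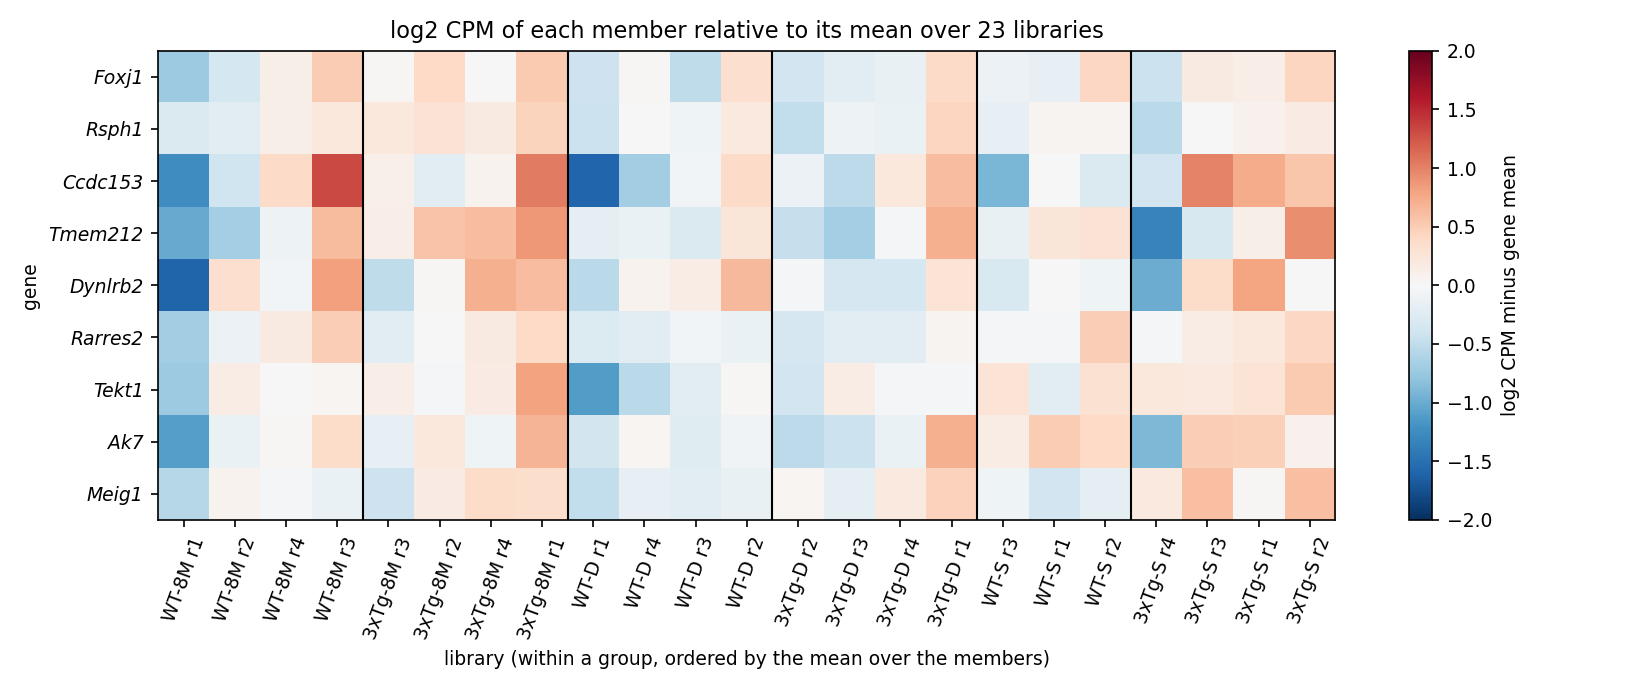
Log2 CPM of each of the 9 expressed members (rows) minus its mean over 23 libraries, for each library (columns, r for replicate), with black lines between groups and libraries ordered within a group by the mean over members. Columns tend to share a colour from top to bottom, from blue in WT-8M replicate 1 to red in 3xTg-8M replicate 1.

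Among 14614 other genes that averaged 1 CPM or more, those whose deviations from the group means were most like the mean deviation of the members over 23 libraries were Dnali1 (Pearson's r = 0.86), Ttc21a (0.85), Fam216b, Stoml3, Dnah6, Cd24a and Cdhr3 (0.84 each) and Taldo1 (0.83). Dnali1 and Dnah6 encode parts of the inner dynein arm, Ttc21a an intraflagellar transport protein, Cdhr3 a cadherin of ciliated epithelium, Cd24a a surface glycoprotein found on ependymal cells and Taldo1 transaldolase of the pentose phosphate pathway. These r values describe the ranking and were not tested, and all of them come from the same libraries, with their depth in common. Dnali1 lay at 0.845 to 2.78 CPM and Taldo1 at 69.0 to 92.8 CPM. The 6 oligodendrocyte markers had a median r of 0.66 with the members' mean (Mbp 0.70, Mobp 0.69), above the median of each of the 9 lists of cilia and ependymal genes, and the meningeal markers had a median of -0.25, beside 0.01 over all genes.

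Beside the members were set 92 other genes of motile cilia and ependyma, in 9 lists that hold none of them. The 72 of these with at least 1 CPM had a median r of 0.31 with the members' mean deviation, and 15 were among the first 100 genes of the ranking. By list, the median was 0.52 for tektins and microtubule doublet proteins, 0.51 for the inner dynein arm, 0.51 for the central pair, 0.49 for other ependymal markers, 0.47 for the dynein regulatory complex, 0.27 for radial spokes, 0.24 for the outer dynein arm, 0.15 for regulators of multiciliogenesis and -0.03 for dynein arm assembly factors. The most abundant gene of each list, by CPM without correction for gene length, often followed the members less. Its r was 0.12 for Dnah1 of the inner arm, 0.24 for Rsph9 of the radial spoke and 0.25 for Cfap54 of the central pair, but 0.56 for Tppp3. It was -0.05 for Dnal1 of the outer arm (161 CPM), -0.24 for Rfx3 of the regulators (108 CPM), -0.47 for Ccdc39 of the regulatory complex (27.3 CPM) and -0.08 for Spag1 of the assembly factors (14.3 CPM), each the most abundant of its list.

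These genes were tested between groups in the same fits. In 3xTg-8M against WT-8M, 80 were tested, 47 were higher and 33 lower (median log2 fold change 0.09), 1 was called higher and 3 lower, 4 of 80 where 2.58% of all genes were called. Rsph3a, a radial spoke gene with the close copy Rsph3b between which reads may be split, rose by 0.71 (edgeR adjusted p = 0.0283). Cfap46, a central pair gene, fell by 1.11 (edgeR adjusted p = 0.0188), Drc1 of the regulatory complex fell by 0.68 (edgeR adjusted p = 0.0246) and Gmnc, the geminin-family inducer of multiciliogenesis, fell by 0.73 (edgeR adjusted p = 0.0408). At 10 months Rsph3a, without a call, lay at 5.02 to 6.28 CPM in 3xTg-D and 5.18 to 6.22 CPM in 3xTg-S. It lay at 1.99 to 4.55 CPM in WT-D and 2.09 to 4.54 CPM in WT-S. Drc1 averaged 10.1 CPM (3xTg-D), 10.9 CPM (3xTg-S), 12.1 CPM (WT-D) and 13.2 CPM (WT-S). Gmnc averaged 3.84 CPM in 3xTg-D and 3.95 CPM in 3xTg-S, beside 3.99 CPM in WT-D and in WT-S. In the vehicle groups Cfap46 was the gene called, lower in 3xTg-D (log2 fold change -1.03, edgeR adjusted p = 0.00725; 1 of 80 tested, where 1.39% of all genes were called), and it was also the gene called in 3xTg-S against WT-S (-0.85, edgeR adjusted p = 0.0469; 1 of 82 tested, where 1.32% were).

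Cfap46 measured 5.57 ± 1.51 CPM (SD, n = 4) in WT-8M, 5.75 ± 0.863 CPM (n = 4) in WT-D and 5.64 ± 1.18 CPM (n = 3) in WT-S. In the 3xTg groups it measured 2.63 ± 0.564 CPM (n = 4) in 3xTg-8M, 2.84 ± 0.495 CPM (n = 4) in 3xTg-D and 3.14 ± 0.414 CPM (n = 4) in 3xTg-S. The WT groups, from 4.41 CPM upwards, did not overlap with the 3xTg groups, which ended at 3.45 CPM. Its r with the members' mean deviation was -0.09, and none of the members differed by strain in this way. In 3xTg-S against WT-D, Spef2 of the central pair (log2 fold change 0.65, edgeR adjusted p = 0.0244) and Tppp3, a microtubule-binding protein listed as an ependymal marker (0.71, edgeR adjusted p = 0.0124), were called higher and Cfap46 lower (-0.89, edgeR adjusted p = 0.0106), 3 of 80 tested where 2.29% of all genes were called. Spef2 and Tppp3 were also higher in 3xTg under vehicle, without a call. Spef2 averaged 6.87 CPM in 3xTg-D and 7.69 CPM in 3xTg-S, beside 4.85 CPM in WT-D and 5.32 CPM in WT-S. Tppp3 averaged 28.7 CPM in 3xTg-D and 30.7 CPM in 3xTg-S, beside 18.7 CPM in WT-D and 21.2 CPM in WT-S. None of the 92 was called in the 2 comparisons of inhibitor with vehicle, for the averaged inhibitor effect or for the interaction.

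RefSeq promoter windows on GRCm38 (250 bases before to 50 after a start) were at hand for 7 of the 10 members, in 10 windows. They were searched on both strands for GTTNCC, letters of the X-box to which RFX factors bind, and for TGTTTA, the core letters of forkhead factors such as FOXJ1. GTTNCC was in 6 of the 10 members' windows (60%), in 69 of 86 windows of the 92 cilia genes (80.2%) and in 45.3% of all 32851 windows. TGTTTA was in 2 of 10 (20%), 16 of 86 (18.6%) and 13.4%. A match is a description of sequence only, and no matches overlapped in the stretches shown. The stretches before the annotated gene are shown for 4 members that each held a match there, Tmem212, Ccdc153, Dynlrb2 and Ak7 (r of 0.65 to 0.79 among them). Whether the matches go with the correlation was not tested. Matches to either motif are in capitals, 5′ to 3′ on the strand of the gene. The stretches are chr3:27896369-27896618 (minus), chr9:44240427-44240675 (plus), chr8:116504765-116504973 (plus) and chr12:105705732-105705975 (plus).
Tmem212: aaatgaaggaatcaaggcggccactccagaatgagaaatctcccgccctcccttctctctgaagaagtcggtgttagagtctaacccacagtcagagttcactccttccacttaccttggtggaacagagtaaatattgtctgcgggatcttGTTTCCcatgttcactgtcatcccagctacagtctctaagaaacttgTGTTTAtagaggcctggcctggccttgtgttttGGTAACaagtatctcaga
Ccdc153: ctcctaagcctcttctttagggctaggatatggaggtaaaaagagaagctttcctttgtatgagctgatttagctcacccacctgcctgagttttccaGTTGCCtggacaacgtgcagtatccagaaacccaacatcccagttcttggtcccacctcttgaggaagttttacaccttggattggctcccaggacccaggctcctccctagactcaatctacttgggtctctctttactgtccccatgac
Dynlrb2: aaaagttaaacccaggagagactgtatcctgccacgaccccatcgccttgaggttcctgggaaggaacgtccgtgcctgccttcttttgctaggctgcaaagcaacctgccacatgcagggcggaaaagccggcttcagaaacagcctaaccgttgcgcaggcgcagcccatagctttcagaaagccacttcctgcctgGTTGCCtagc
Ak7: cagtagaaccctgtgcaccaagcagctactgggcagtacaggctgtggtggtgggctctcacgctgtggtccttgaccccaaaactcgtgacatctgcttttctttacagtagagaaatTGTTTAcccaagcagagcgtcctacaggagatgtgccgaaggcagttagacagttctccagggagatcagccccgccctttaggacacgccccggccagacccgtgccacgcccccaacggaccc
Tmem212 held 2 matches to GTTNCC and 1 to TGTTTA before its start, Ccdc153 and Dynlrb2 1 match to GTTNCC each, and Ak7 1 match to TGTTTA. The stretches before the Meig1 and Mia genes held no match to either motif and are not shown. The remaining matches, to GTTNCC in windows of Meig1, Mia and Tekt1, lay within the annotated genes. No windows were at hand for Foxj1, Rsph1 and Rarres2.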

How the data were processed

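The deposited values were raw gene counts, neither normalised nor pooled. Per the study's methods and the submitters' processing notes, the authors used Trimmomatic 0.35 for trimming and STAR 2.5.1b for alignment to GRCm38 (Gencode M23). Libraries were made from poly(A) RNA and read from 1 end. The strand setting and any collapsing of molecular identifiers are not given in the sources used here. Lines that name no gene (24.7% to 30.9% of reads) were left out. Each pair of groups was fitted alone with edgeR 4.0.16 (R 4.3.3, filterByExpr, TMM, quasi-likelihood test), with Benjamini-Hochberg adjustment over all tested genes and a call at an adjusted p under 0.05. The SE is the log2 fold change over the square root of F. The inhibitor effect averaged over strains and the interaction were fitted on the 15 libraries of 10 months. Alternatives were DESeq2 1.42.0 size factors in edgeR, the DESeq2 likelihood ratio test, no filter, all 10-month libraries in one fit, an unadjusted p under 0.01, a block of animal-number runs and each library left out. Correlations used log2 CPM (prior count 2) and 100000 permutations within groups. Fits were tested on simulated counts. The labels give 1 mouse per library. Listed genes are named where called (up to 8 per comparison) or most abundant in their list, except that results on some listed genes and part of the 3xTg genotype are not reported here. Members and lists were chosen with earlier results of these data known. Gene positions are those of the deposited table, exon lengths and overlaps those of Gencode M21, in which all 10 members have the same position.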

Additional observations from a re-analysis of the deposited data

How the results depend on the processing

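No member was called in any of the 6 comparisons, for the averaged inhibitor effect or for the interaction under DESeq2 size factors, the DESeq2 likelihood ratio test, 1 fit of all 10-month libraries, or with any single library left out (0 to 0 members called). With no filter on low counts, 1 member was called in 3xTg-S against WT-S and 1 in 3xTg-S against WT-D (Ccdc153 in both), while calls over all genes went from 206 to 729 and from 356 to 1135, and the cause was not tested. At an unadjusted p under 0.01, 2 members passed in 3xTg-S against WT-D (Tekt1 and Meig1) and 1 for the averaged inhibitor effect (Rarres2, log2 fold change 0.34). Of 1143 alternative values for single members, 105 changed sign, none of them called. With 1 library left out, the median log2 fold change of the members ranged from 0.14 to 0.53 in 3xTg-8M against WT-8M, -0.15 to 0.23 in 3xTg-D against WT-D, 0.12 to 0.41 in 3xTg-S against 3xTg-D, 0.01 to 0.32 in WT-S against WT-D, -0.06 to 0.25 in 3xTg-S against WT-S and 0.20 to 0.41 in 3xTg-S against WT-D.

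The labels number the mice but do not pair them. A block of runs of 4 consecutive animal numbers changed no call (0 members called) and gave a median of 0.09 in WT-S against WT-D. Leaving out the 3 libraries with Ttr above 100 CPM, chosen after seeing the data, changed no call and gave medians of 0.35 in 3xTg-8M against WT-8M, 0.17 in 3xTg-S against 3xTg-D, 0.01 in WT-S against WT-D, 0.14 in 3xTg-S against WT-S and 0.27 in 3xTg-S against WT-D. At 8 to 54 counts for the member with the fewest reads, differences smaller than the 95% intervals could not be detected. Larger ones may also go uncalled, since the intervals are unadjusted and a call needs an adjusted p under 0.05. Tmem212 at 8 months was such a case (log2 fold change 0.83, 95% interval 0.13 to 1.53, edgeR adjusted p = 0.214).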

Other observations

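No library stood apart from the rest of its group of 4 in the 45 checks of the 9 expressed members (gap over range, Dixon's 95% value of 0.829). Rfx3 and Dnal1, listed with the cilia genes, had far more reads than the members, at 79.7 to 141 CPM and 135 to 178 CPM over the libraries. CPM is not corrected for gene length. Cfap54 of the central pair spread from 5.52 to 33.0 CPM within WT-D, 6.62 to 18.2 CPM within WT-8M and 8.93 to 18.6 CPM within WT-S. In the 3xTg groups it lay at 5.93 to 8.36 CPM (3xTg-8M), 7.18 to 11.5 CPM (3xTg-D) and 6.35 to 8.49 CPM (3xTg-S).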
